A study of Mus musculus with 8 samples.

Results

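The cluster from miR-379 to miR-410 is a run of microRNA (miRNA) hairpins in the distal part of the imprinted Dlk1-Dio3 region of mouse chromosome 12. Its products were taken by name from a table of 1915 mature miRNA names, and all 54 listed names were present. They come from 32 hairpins on the plus strand between 109709060 and 109743795 (GRCm38), a span of 34.74 kb. The rule lists them by name as products of the cluster and uses no measured value. A further 22 names of the cluster are present and are not on the list. The material was prefrontal cortex of 12-week-old C57BL/6 mice, read by small RNA sequencing. The 4 wild-type libraries are numbered WT1, WT2, WT3 and WT4, and the 4 libraries from mice lacking Fkbp5 are numbered KO1, KO2, KO4 and KO5. The product of Fkbp5 works with the chaperone Hsp90 and dampens glucocorticoid receptor signalling. The knockout allele and the sex of the mice are not given in the sources used here, and the messenger RNA of Fkbp5 is not read by this assay.

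Products of the cluster are made from the maternally inherited chromosome, from a long noncoding transcript that runs through Meg3, Rian and Mirg and is cut into hairpins. Each hairpin yields up to a pair of mature miRNAs, the 5p and the 3p arm, and the bases from position 2 to position 8 of a mature miRNA, its seed, select its target messenger RNAs. The cluster is known for expression in brain and placenta, for induction by neuronal activity and for members that act at dendrites and synapses. The cluster is commonly assigned to Mirg. In the annotation Mirg spans 109729764 to 109749460 on chromosome 12, so 20 of the 32 hairpins lie before it and 12 inside it. Of the 12, 4 were wholly inside an exon of some Mirg transcript, 4 crossed an exon end and 4 were intronic.

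The most abundant products are shown first because they hold most of the cluster's output. Sequences are RefSeq's for GRCm38.p6, written 5′ to 3′ with the seed in capitals, and 50 of the 54 names had an entry. miR-376c-3p, miR-487b-3p, miR-539-3p and miR-485-5p are given by name only. The length of the 50 ran from 19 to 25 bases.
mmu-miR-382-5p: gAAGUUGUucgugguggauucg
mmu-miR-541-5p: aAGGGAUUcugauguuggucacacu
mmu-miR-379-5p: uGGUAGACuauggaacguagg
mmu-miR-369-3p: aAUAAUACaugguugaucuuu
mmu-miR-411-5p: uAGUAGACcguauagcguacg
mmu-miR-409-3p: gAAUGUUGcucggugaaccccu

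The next set shows the members that resemble each other, which were picked after reading the sequences. Positions are counted from 1 at the 5′ end, with the base of the first-named miRNA before the position and that of the other after it.
mmu-miR-379-3p: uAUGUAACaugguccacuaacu
mmu-miR-411-3p: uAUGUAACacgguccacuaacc
mmu-miR-300-3p: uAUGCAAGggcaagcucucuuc
mmu-miR-381-3p: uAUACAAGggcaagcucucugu
mmu-miR-543-3p: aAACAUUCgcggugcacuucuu
mmu-miR-495-3p: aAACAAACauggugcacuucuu
mmu-miR-376b-3p: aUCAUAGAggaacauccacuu
mmu-miR-376a-3p: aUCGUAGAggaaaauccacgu

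Among the 50 sequences there were 49 distinct seeds. The shared seed was that of mmu-miR-379-3p and mmu-miR-411-3p, AUGUAAC, and these were identical at 20 of 22 positions (U10C and U22C). Their 5p partners were identical at 14 of 21 positions, and G2A set their seeds apart. mmu-miR-300-3p and mmu-miR-381-3p matched at 19 of 22 positions and differed inside the seed (G4A) and at the end (U21G and C22U). mmu-miR-543-3p and mmu-miR-495-3p matched at 18 of 22 positions, with U6A and U7A inside the seed and G9A and C10U after it. mmu-miR-376b-3p and mmu-miR-376a-3p matched at 18 of 21 positions, with A4G inside the seed.

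A further 5 sequences are printed for the results on synaptic members, on the end of the cluster and on genotype.
mmu-miR-134-5p: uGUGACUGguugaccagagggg
mmu-miR-329-3p: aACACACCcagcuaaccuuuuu
mmu-miR-485-3p: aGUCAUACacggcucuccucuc
mmu-miR-410-3p: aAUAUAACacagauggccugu
mmu-miR-154-5p: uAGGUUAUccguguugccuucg

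The seed of 11 members was found in a mature mouse miRNA outside the list, as for miR-329-3p with miR-362-3p, and miR-410-3p with miR-344d-3p and miR-344e-3p. Some of these matches were unlisted names of the same cluster. These were miR-379-5p with miR-1193-5p, miR-299a-3p with miR-299b-3p, miR-376b-5p with miR-376c-5p, and miR-410-5p with miR-494-5p. The first base was A in 20 of the 50 members (40.0%) and in 26.3% of the 510 tested miRNAs that had a sequence. It was C in 6.0% and 20.8%, and U in 42.0% and 41.2%. The word AGGUU, searched on the strand of the miRNA, was in 7 of 24 5p members (29.2%) and in 4.88% of 205 other tested 5p miRNAs. CACGG was in 6 of 26 3p members (23.1%) and in 1.33% of 226 other tested 3p miRNAs. UCCAC was also in 6 of the 26, and in 3.1% of the others. These words were picked for being frequent in the members, so their shares are descriptions.

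Each library has a value for every mature name, and the summed values of a library lay between 16180699 and 21555993. In units of 1000000, wild-type totals were at 19.1 ± 2.82 (SD, n = 4) and knockout totals at 18.6 ± 0.93 (SD, n = 4), and a two-sided exact permutation test of the difference gave p = 0.771. Values below are rescaled to the median library, with factors from 0.849 to 1.22. Neuronal marker miRNAs held from 35.9% to 44.1% of the wild-type libraries and from 37.8% to 40.9% of the knockout libraries, and oligodendrocyte markers from 0.112% to 0.156% and from 0.114% to 0.129%. Microglial and leukocyte markers held from 0.0438% to 0.0569% and from 0.0522% to 0.0707%, and vascular markers from 0.378% to 0.567% and from 0.298% to 0.461%. Red blood cell markers held from 0.0153% to 0.0281% and from 0.0205% to 0.0263%. Markers of epithelium and olfactory bulb held from 0.00929% to 0.0343% and from 0.00473% to 0.0346%. Hindbrain and cord markers held from 0.00198% to 0.00316% and from 0.00113% to 0.00259%. The part of these differences in the results below was not tested. No marker was at 0 in every library. In bulk tissue, fewer cells of a type and less RNA per cell cannot be told apart.

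The listed members together held a small and steady part of the cortical miRNA pool. Their share of all deposited values was 1.53% in WT1, 1.48% in WT2, 1.28% in WT3 and 1.40% in WT4. In the knockout it was 1.29% in KO1, 1.39% in KO2, 1.46% in KO4 and 1.62% in KO5. The groups overlapped almost fully, with means of 1.42% ± 0.11 and 1.44% ± 0.14 (SD, n = 4 each). The highest member, miR-382-5p, was the 40th most abundant of all miRNAs.

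Within the cluster, levels spanned several orders of magnitude. Over the 8 libraries, 6 members had a mean rescaled value of 10000 or more, 21 lay between 1000 and 10000, 14 between 100 and 1000, 12 between 10 and 100, and miR-539-3p at 1.12. The 5 highest held 60.5% of the members' total and the 10 highest held 77.7%. The highest mean was 3479 times the lowest among the 53 members that passed the filter, which asked for a rescaled value of 10 in at least 4 libraries. Nothing in these data calibrates how well each sequence is recovered in a library, so these are levels in the libraries.

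miR-382-5p, from a hairpin across a Mirg exon end, was at 52540 in WT1, 36970 in WT2, 40020 in WT3 and 41280 in WT4, and at 44260 in KO1, 41130 in KO2, 37090 in KO4 and 34550 in KO5. WT1 was highest and KO5 lowest, and the groups overlapped. miR-541-5p, from an intron of Mirg, was at 41640, 35600, 37290 and 27840 in WT1 to WT4 and at 40610, 33450, 40340 and 39600 in KO1, KO2, KO4 and KO5. WT4 was lowest, and the knockout values lay inside the wild-type range. miR-379-5p, from the first hairpin, was at 33480, 27370, 25670 and 29710 in wild type and at 31270, 28950, 31130 and 29060 in the knockout, again inside the wild-type range.

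miR-487b-3p, from a hairpin before Mirg, was at 28510, 28400, 25030 and 26110 in wild type and at 21800, 25870, 26690 and 30890 in the knockout, where KO1 and KO5 were the lowest and highest of all 8. miR-369-3p, next to the end of the cluster, was at 28930, 29170, 22450 and 30740 in wild type and at 21180, 23590, 26790 and 29130 in the knockout. KO1, WT3 and KO2 were its low libraries. miR-411-5p, from the second hairpin, ran from 11150 in WT3 to 14020 in WT1, with the knockout between 11530 and 13760.

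The order of the 5 highest members was not fixed from library to library. miR-382-5p exceeded miR-541-5p in 6 of 8 libraries, miR-541-5p exceeded miR-379-5p in 7, and miR-379-5p exceeded miR-487b-3p in 6. miR-487b-3p and miR-369-3p, with means of 26660 ± 2713 and 26500 ± 3609 (SD, n = 8), were each the higher in 4 libraries. The drop from miR-369-3p to miR-411-5p (12590 ± 1014) was seen in all 8. Over the whole list, 9 of 53 neighbours in the order of levels kept their order in all 8 libraries.

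The other members of the top 10 were miR-543-3p (9671 ± 481), miR-495-3p (9253 ± 1409), miR-411-3p (7082 ± 765) and miR-409-3p (6981 ± 651). miR-543-3p and miR-495-3p were each the higher in 4 libraries. miR-410-3p, from the last hairpin, averaged 3009 ± 337.

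Members described at dendrites and synapses had means of 5178 (miR-485-5p), 2672 (miR-329-3p) and 1892 (miR-134-5p). miR-134-5p, which restrains Limk1 translation in dendritic spines, was at 2253 in WT1, 2075 in WT2, 1286 in WT3 and 1984 in WT4, and at 1876, 2209, 1760 and 1694 in KO1, KO2, KO4 and KO5. WT3 stood lowest by a wide margin. miR-329-3p, needed with miR-134 for dendrite growth driven by activity, was at 2207, 2874, 2578 and 2712 in wild type and at 2879, 2903, 2811 and 2412 in the knockout. miR-485-5p, which acts on the synaptic vesicle protein SV2A, was at 5231, 4780, 4802 and 4561 in wild type and at 6421, 6021, 5027 and 4582 in the knockout, with KO1 and KO2 above every other library. All of the groups overlapped for these 3 miRNAs.

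**Figure D1:**
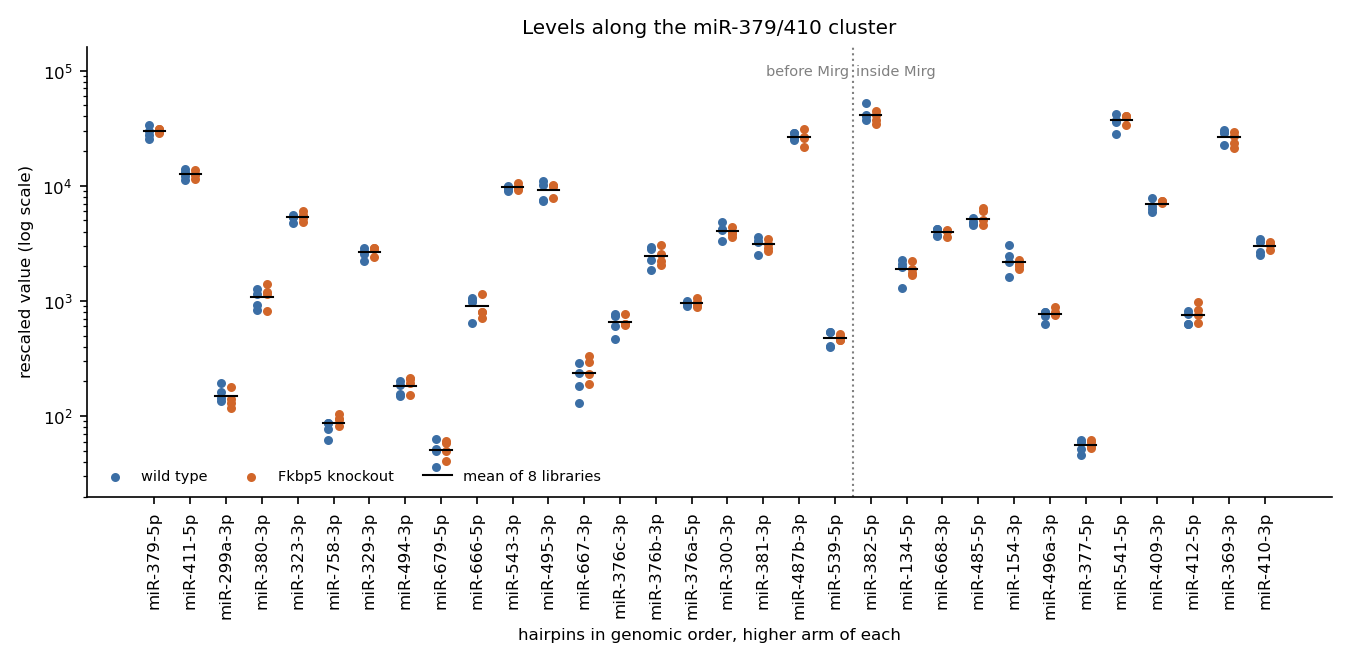
Rescaled value (log axis) of the higher arm of each of the 32 hairpins in genomic order, for 4 wild-type and 4 knockout libraries, with a bar at the mean of 8. Levels jump between neighbours, from a mean of 56.1 for miR-377-5p to 37040 for miR-541-5p, and the genotypes overlap.

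Position along the cluster and level were weakly related. The Spearman correlation of mean level with position, taking the higher arm of each hairpin, was 0.139 over the 32 hairpins, given as a description of points that share the same libraries. Neighbouring hairpins differed by a median of 8.61-fold, and all pairs of hairpins by 6.69-fold. The sharpest step was 660-fold, from miR-377 to miR-541, and both of these hairpins lie inside Mirg. High products were found at both ends and on both sides of the start of Mirg, as the plot of levels in genomic order shows.

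Most hairpins kept the same higher arm in every library. For 24 hairpins both arms had a mean of at least 20 in the deposited values, and for 20 of these both arms were members. The 5p arm was higher in all 8 libraries for 9 hairpins and the 3p arm for 14, and miR-377 was mixed. On average 5p was higher in 10 of 24 (41.7%), against 57.3% of the hairpins outside the cluster. The arms were within 2-fold of each other for 4 hairpins and more than 8-fold apart for 13. This ratio of 5p to 3p, on the log2 scale, varied between libraries with a median SD of 0.27, close to the 0.28 of all 141 hairpins measured. Hairpins with an arm below the minimum were left out of these counts. Among them 3p was higher for miR-494 (182-fold), miR-758 (31.8-fold), miR-376c (135-fold), miR-381 (263-fold), miR-668 (326-fold) and miR-496a (40.0-fold). The 5p arm was higher for miR-539 (427-fold) and miR-679 (8.30-fold). Their lower arms had mean rescaled values from 1.01 to 19.4, so these folds are uncertain.

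The hairpins of the most abundant products ranged from near exclusive use of an arm to shared use. For miR-487b the 3p arm was 1246-fold higher, with log2 ratios from -11.11 to -9.60. For miR-541 the 5p arm was 193-fold higher (7.16 to 7.82), and for miR-495 the 3p arm was 416-fold higher (-9.35 to -8.14). Milder preferences were seen for miR-369, whose 3p arm was 12.4-fold higher, for miR-379, whose 5p arm was 10.6-fold higher, and for miR-382, whose 5p arm was 9.23-fold higher. Both arms of miR-411 were among the 10 highest members, with 5p 1.78-fold higher.

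The remaining compared hairpins with 5p higher were miR-134 (55.9-fold), miR-412 (13.3-fold), miR-376a (7.27-fold), miR-666 (2.64-fold), miR-485 (1.49-fold) and miR-377 (1.27-fold). Those with 3p higher were miR-300 (160-fold), miR-543 (66.2-fold), miR-410 (61.9-fold), miR-154 (22.9-fold), miR-323 (22.6-fold), miR-667 (3.97-fold), miR-329 (3.53-fold), miR-380 (2.77-fold), miR-409 (2.64-fold), miR-299a (2.12-fold) and miR-376b (1.77-fold). Hairpins with similar products could take opposite arms. miR-376b and miR-376a lie side by side and match at 18 of 21 positions of the 3p arm, and 376b favoured 3p while 376a favoured 5p in all 8 libraries. miR-376b-3p was 18.8-fold higher than miR-376a-3p, and miR-376b-5p (1393 ± 151) was also above miR-376a-5p (957 ± 56.6, SD, n = 8).

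**Figure D2:**
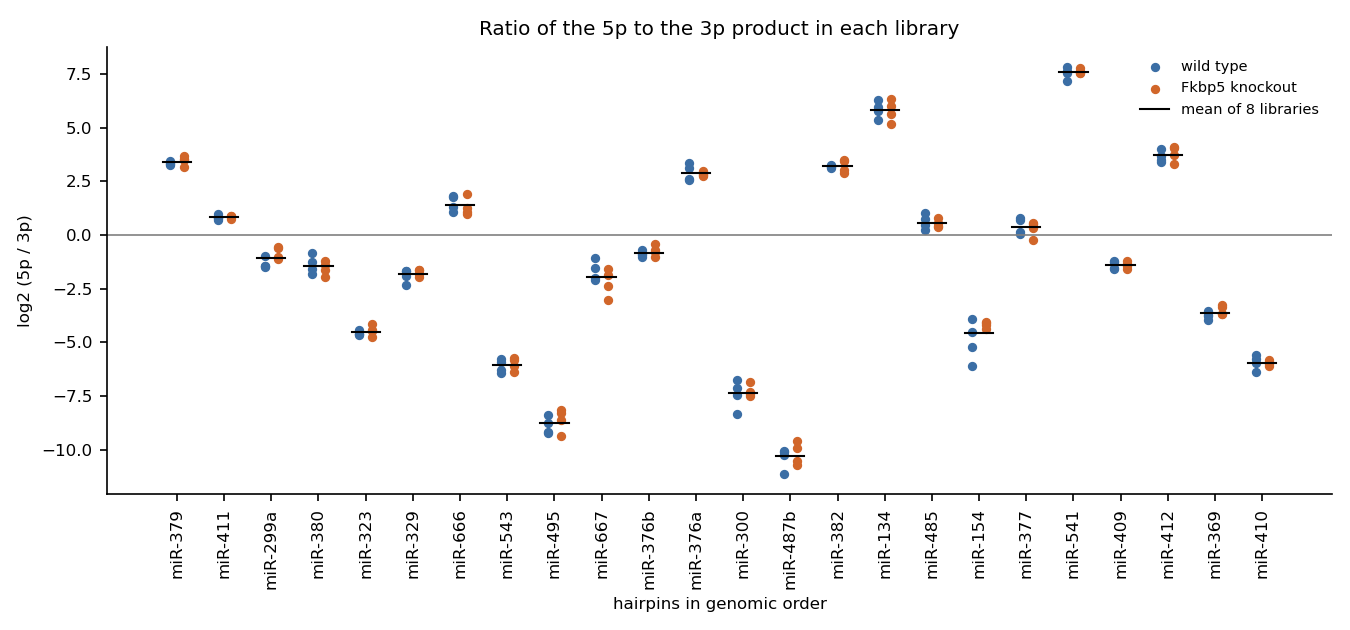
Log2 of the 5p level over the 3p level for the 24 hairpins with both arms measured, in genomic order, by library and genotype, with a bar at the mean of 8. All but miR-377 stay on the same side of 0 in every library, and the spread between libraries is widest for miR-154 (SD 0.74).

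Pairs of similar sequence differed in level and in how closely they moved together. Correlations in this and the next paragraphs are Pearson's r of log2 values after genotype means were removed, over the 8 libraries, and are descriptions with no test. miR-300-3p exceeded miR-381-3p in 8 of 8 libraries by an average of 1.30-fold, with r = 0.973. miR-376b-3p and miR-376a-3p gave r = 0.819, miR-379-3p and miR-411-3p gave 0.779, and miR-379-5p and miR-411-5p gave 0.740. miR-543-3p and miR-495-3p, nearly equal in level, gave -0.179. How the authors' alignment divided reads between such similar sequences is not given in the sources used here, so values of these pairs are uncertain.

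Over all 1378 pairs of tested members the median r was 0.073, against 0.020 for all pairs of the 600 tested miRNAs. Values as deposited, with no rescaling, gave 0.620 for the members. Among the 27 members with a mean of 1000 or more, deposited values gave a median r of 0.779. Pairs of equally abundant miRNAs outside the Dlk1-Dio3 region gave 0.609. After rescaling, the median r of these 27 members was 0.188 (351 pairs), against 0.0154 for the pairs outside the region. The 0.188 rested on WT3. Without WT3 the median was 0.00502, against 0.0171 outside the region, and without any other single library it ran from 0.173 to 0.225.

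WT3 was the library in which the abundant members were low together. Its median deviation from the wild-type mean was -0.15 log2 units, and 4 of the 27 members were above 0, while abundant miRNAs outside the region had a median of -0.0141 there. The deviation was 0.09 in WT1 (19 of 27 above 0), 0.06 in WT4 (20), 0.01 in WT2 (14), 0.08 in KO5 (19), 0.04 in KO4 (17), 0.0083 in KO2 (14) and -0.06 in KO1 (13). The members that followed the others most closely were miR-381-3p (r = 0.894 with the mean of the rest), miR-369-3p (0.875) and miR-300-3p (0.820). miR-409-5p (-0.517), miR-485-3p (-0.399), miR-485-5p (-0.339) and miR-329-3p (-0.302) went the other way.

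The arms of a hairpin, which come from the same precursor, were not always tied. For the 7 hairpins with both arms at 1000 or more, r was 0.8 for miR-411, 0.729 for miR-376b, 0.465 for miR-379, 0.235 for miR-369, 0.228 for miR-382, 0.116 for miR-409 and -0.0552 for miR-485. GC content moved with the deviations in some libraries. Over 25 abundant members with a sequence, the correlation of deviation with GC content was -0.491 in KO5, -0.448 in WT2, 0.456 in KO1 and 0.471 in KO2. Outside the region it was -0.186, -0.386, 0.0747 and 0.480 in the same libraries. The part of GC content in the covariation was not tested.

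**Figure D3:**
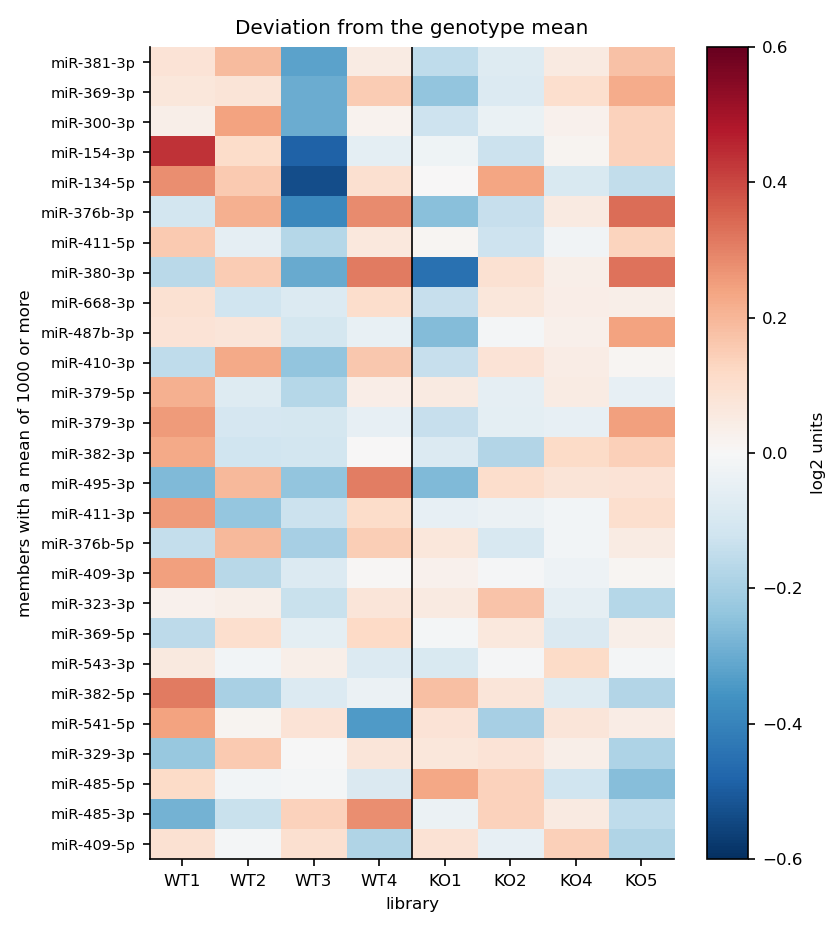
Deviation of each of the 27 members with a mean of 1000 or more from its genotype mean, in log2 units, by library, ordered by how closely a member follows the rest. In WT3 4 of the 27 members are above 0, and the members at the bottom do not share that pattern.

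The comparison of genotypes asks whether loss of Fkbp5 changes the output of the cluster. In limma with Benjamini-Hochberg adjustment over the 600 tested miRNAs, 0 of the 53 tested members passed 0.05, and 0% of all tested miRNAs did. The smallest adjusted p among the members was 0.973. Before adjustment 1 member had p under 0.05, against 4% of all tested miRNAs. That member was higher in the knockout. Of all 600 tested miRNAs, 1.33% had such a p and were higher in the knockout. In 0 members did the groups not overlap, against 1.5% of all tested miRNAs.

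Higher means in the knockout were the more frequent, by small amounts. The log2 fold change, knockout minus wild type, was above 0 for 38 of 53 members (71.7%), against 54% of all tested miRNAs, with a median of 0.06 against 0.02. With upper quartile scaling 42 of the 53 were above 0, and 66.4% of all tested miRNAs were. Without WT3 the count was 30 and the median 0.0087, and 48.9% of all tested miRNAs were above 0. The count was 31 without KO4 and 32 without KO5, with 49.9% and 49.4% of all tested miRNAs above 0. Without KO1 it was 40, the highest with a library left out, with 52.5% of all. The 95% interval excluded a 2-fold change in either direction for 52 of 53 members (98.1%), against 86.5% of all tested miRNAs. Members before Mirg were above 0 in 21 of 32 cases, with a median of 0.05, and those inside Mirg in 17 of 21, with a median of 0.07. The difference between these counts was not tested.

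miR-154-5p, the minor arm of an intronic Mirg hairpin, had the smallest p. It was at 44.5 in WT1, 64.9 in WT2, 108.3 in WT3 and 93.2 in WT4, and at 97.2 in KO1, 114.9 in KO2, 119.9 in KO4 and 123.2 in KO5. WT1 and WT2 were low, and WT3 lay above KO1, so the groups overlapped. The log2 fold change was 0.62 ± 0.25 (SE), with a limma adjusted p of 0.973. Its abundant partner miR-154-3p was at -0.13 ± 0.17. Without WT3 the change of miR-154-5p was 0.81, and without WT1 it was 0.39.

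The next 5 members by p did not pass the threshold either, and all had higher means in the knockout. miR-485-3p was at 2588, 2875, 3468 and 3830 in WT1 to WT4 and at 3653, 4115, 3884 and 3363 in KO1, KO2, KO4 and KO5, a log2 fold change of 0.25 ± 0.14. WT1 and WT2 were its low libraries. The others were miR-299a-5p (0.35 ± 0.20), miR-329-5p (0.23 ± 0.15), miR-758-3p (0.26 ± 0.17) and miR-667-3p (0.36 ± 0.25), and their adjusted p by limma was 0.994 each. Leaving out WT1 moved miR-485-3p to 0.16 and miR-667-3p to 0.16, leaving out WT4 moved miR-329-5p to 0.11, and leaving out WT3 moved miR-758-3p to 0.16 and miR-667-3p to 0.54.

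The abundant members differed little between genotypes. Log2 fold changes were -0.12 ± 0.13 for miR-382-5p, 0.12 ± 0.13 for miR-541-5p, 0.06 ± 0.10 for miR-379-5p, -0.05 ± 0.11 for miR-487b-3p and -0.14 ± 0.13 for miR-369-3p. Leaving out single libraries moved these values. Without WT1 the change of miR-382-5p was -0.0027 and that of miR-379-5p 0.14, and without WT3 miR-379-5p was at 0.0087. Without WT4 miR-541-5p was at -0.0016, without KO1 miR-487b-3p was at 0.040, and miR-369-3p was at -0.066 without KO1 and -0.24 without WT3. The 95% interval of miR-379-5p ran from -0.17 to 0.28, and that of miR-369-3p from -0.43 to 0.14. Among the synaptic members miR-134-5p was at 0.01 ± 0.17, miR-329-3p at 0.09 ± 0.12 and miR-485-5p at 0.18 ± 0.12. Without WT3 miR-134-5p was at -0.16, without WT1 miR-329-3p was at 0.021, and without KO1 miR-485-5p was at 0.097. At the last hairpin miR-410-3p was at 0.06 ± 0.13 and miR-410-5p at 0.01 ± 0.21. Changes smaller than these intervals were not detectable with 4 libraries a genotype.

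**Figure D4:**
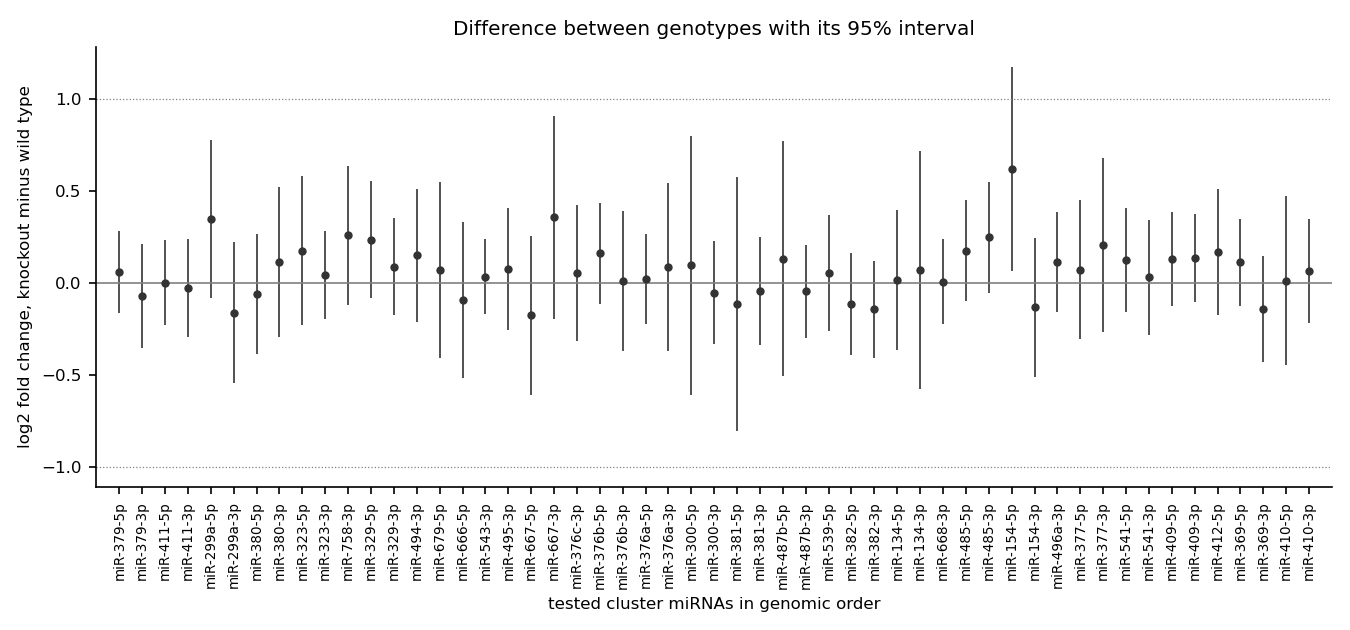
Log2 fold change, knockout minus wild type, with its 95% interval for the 53 tested members in genomic order; dotted lines mark a 2-fold change. All intervals except that of miR-154-5p include 0, and that interval is also the only one to reach beyond a 2-fold change.

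Arm choice did not pass the test between genotypes in any hairpin. By limma over 141 hairpins, 0 of the 24 cluster hairpins passed 0.05 after adjustment, against 0% of all. Before adjustment 1 of 24 had p under 0.05, against 2.13% of all 141. The groups did not overlap for 0 of the 24, against 0.709% of all. The 95% interval excluded a 2-fold change of the ratio for 22 of 24. The same share over all 141 was not computed, so this count only describes the precision of these ratios.

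The smallest p was that of miR-299a, whose log2 ratio was -1.34 ± 0.24 in the wild-type libraries and -0.83 ± 0.27 in those without Fkbp5 (SD, n = 4 each). The difference was 0.51 ± 0.19 (SE), toward 5p in the knockout, with a limma adjusted p of 0.973. miR-154 followed at 0.76 ± 0.37 and miR-667 at -0.54 ± 0.32, neither past the threshold. Without WT1 the difference of miR-154 was 0.37, and without KO5 that of miR-667 was -0.26. The ratio of miR-154 spread far more in wild type (SD 0.94) than in the knockout (SD 0.15).

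Other miRNAs of the region are given beside the cluster, with no test of the differences between lists and against 54% of all tested miRNAs above 0. Of 10 tested miRNAs antisense to Rtl1, 5 had a log2 fold change above 0, with a median of -0.0080. For 1 of these 10 the groups did not overlap, against 1.5% of all tested miRNAs. Of 15 tested near Meg3 or between, 10 were above 0, with a median of 0.10, and of 11 tested names of the cluster outside the list, 9 were, with a median of 0.08. The 4 activity-linked miRNAs of the miR-132/212 pair, encoded elsewhere, were all above 0, with a median of 0.07. Of these 4 lists, 0 members passed adjustment in limma, and before it 1 near Meg3 and 1 antisense to Rtl1 had p under 0.05, against 4% of all tested miRNAs. Leaving out a library moved these medians by more than their own size in some cases, as given with the alternatives.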

How the data were processed

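The deposited values were handled as a score: the file headers call them normalized counts, and they are whole numbers with unequal library totals, as raw counts would be, so they may be raw counts. The header was followed and no count model was applied. Per the submitters' processing notes the tools were cutadapt 1.11, Bowtie 1.1.2, HTSeq 0.6.1p1, edgeR and R 3.10.2, and the build was mm10, the assembly GRCm38; order and settings are not given in the sources used here. Per the labels' protocols, enriched small RNA was ligated to adapters, amplified and selected by size on a gel.

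Values were rescaled by a trimmed mean of log ratios (30% of ratios and 5% of levels trimmed at each end) and kept for testing at a value of 10 in 4 or more libraries and a sum of 15. limma 3.58.1 in R 4.3.3, with a mean-variance trend, compared log2(value + 1) by genotype, which understates changes of low miRNAs, with Benjamini-Hochberg adjustment at 0.05 over all 600. Arm ratios used log2((5p + 0.5)/(3p + 0.5)) of deposited values where each arm had a mean of 20 or more, without the trend. Library totals were compared by exact permutation over 70 arrangements, whose smallest p is 0.0286. The procedure was tested on simulated data.

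Named with values were the 10 highest members, the 6 with the smallest p, both end hairpins, miR-134-5p, miR-485-5p, miR-329-3p, every compared hairpin and the 3 with the smallest arm p. The members and lists were chosen with earlier results of these data known. Whether each library is its own animal is not stated, so the p-values reflect only how these samples vary.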

Additional observations from a re-analysis of the deposited data

Results flagged for a closer look

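Over the named members, the arm ratios and the cluster's share, 94 groups of 4 libraries were examined for a single library far from the other 3, and 5 had one, where about 1 in 20 (4.7) is what chance gives. miR-541-5p was at 33450 in KO2, with the other knockout libraries between 39600 and 40610. miR-495-3p was at 7815 in KO1, with the others between 9913 and 10130. miR-379-3p was at 3411 in WT1, with the others between 2652 and 2755. The log2 arm ratio of miR-299a was -0.98 in WT3, with the others between -1.49 and -1.44, and that of miR-323 was -4.44 in WT2, with the others between -4.64 and -4.62.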

How the results depend on the processing

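No member passed adjustment in limma under any of the 19 alternatives. Over the 22 named members, 12 kept the sign of the log2 fold change throughout, and 29 of 415 alternative values had the other sign, none past the threshold. With upper quartile scaling these were miR-487b-3p (0.0061), miR-411-5p (0.052) and miR-411-3p (0.025), and with scaling that left out the Dlk1-Dio3 region miR-411-5p (0.0060); the cause was not tested. Leaving out a library in turn gave ranges that cross 0 of -0.0016 to 0.21 for miR-541-5p, -0.14 to 0.040 for miR-487b-3p, -0.062 to 0.061 for miR-411-5p, -0.017 to 0.063 for miR-543-3p, -0.0039 to 0.17 for miR-495-3p, -0.11 to 0.065 for miR-411-3p, -0.17 to 0.022 for miR-379-3p, -0.077 to 0.17 for miR-410-5p, -0.0077 to 0.14 for miR-410-3p and -0.16 to 0.11 for miR-134-5p. Leaving out a library, the members with unadjusted p under 0.05 ran from 0 to 2 of 53 (3.07% to 5.7% of all tested miRNAs), those whose groups did not overlap from 0 to 2 (3.24% to 5.74% of all), the cluster arm ratios with unadjusted p under 0.05 from 0 to 3 (0.704% to 6.25% of all hairpins), the library total difference, knockout minus wild type, from -1.43 to 0.362 in units of 1000000, the median of the list near Meg3 from 0.019 (without WT1) to 0.15, of the miRNAs antisense to Rtl1 from -0.031 (without WT3) to 0.058 (without WT2), of the cluster names outside the list from 0.040 (without WT3) to 0.20 (without KO5), of the activity-linked miRNAs from 0.017 (without WT2) to 0.16 (without WT3), and the median r of the members from 0.0201 (without WT3) to 0.102. That median was 0.620 for values as deposited, 0.0421 with scaling that left out the region, 0.106 for members at 100 in at least 4 libraries and 0.188 for those with a mean of 1000 or more. For values as deposited and a mean of 1000 or more, it was 0.779 for the members and 0.609 outside the region. With a minimum of 100, 0 of 14 cluster arm ratios had unadjusted p under 0.05, against 2.35% of all 85 hairpins. miR-299a, which had such a p in the main fit, fell below this minimum and was not compared. The fit on the same 6 libraries without the block, the mean of 1000, and the alternatives for the lists' medians, for the counts of higher members and for arm ratios before adjustment were chosen after seeing the data.

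Replicate numbers 1, 2 and 4 occur in both genotypes. Same-numbered libraries gave correlations of deviations of 0.085, -0.047 and 0.121, and 0 of the 3 pairs had its best match in its own number. What the numbers stand for is not given in the sources used here. With 3 pairs, these correlations cannot decide whether same-numbered libraries were handled together. A replicate block on these 6 libraries gave 2 of 53 members with unadjusted p under 0.05 (5.85% of all 581 tested miRNAs). It gave 7 members whose groups did not overlap (9.64% of all). For arm ratios it gave 3 of 25 cluster hairpins with unadjusted p under 0.05 (6.99% of all 143) and 1 past adjustment (0.699% of all). The latter was miR-154 (1.111 ± 0.28 SE, limma adjusted p = 0.0149). In that fit miR-299a and miR-667 had the same SE, so it does not measure the spread of miR-154 alone. The same 6 libraries without the block gave counts of 2, 7, 2 and 0 (6.54%, 9.64%, 4.2% and 0% of all). There the arm ratio of miR-154 was at 1.111 ± 0.35 (SE, limma adjusted p = 0.346). In both fits 28 of the 53 tested members were higher in the knockout, against 50.1% of all tested miRNAs. In both, the sign turned for miR-495-3p (-0.023), miR-410-5p (-0.037), miR-410-3p (-0.013) and miR-134-5p (-0.11).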
